A study of Mus musculus with 16 samples.

Results

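The drug efflux transporters of the ATP-binding cassette (ABC) family are 10 genes, taken from the deposited table by their symbols: Abcb1a, Abcb1b, Abcb5, Abcc1, Abcc2, Abcc3, Abcc4, Abcc5, Abcc10 and Abcg2. They are 10 of the 45777 genes listed. Of these members, 9 had a count above 0 in every tumor and were among the 16209 genes tested, whereas Abcb5 had none in any tumor. The tumors were allografts of B16F10, a melanoma line of C57BL/6 origin, grown under the skin of C57BL/6J mice (lean) or leptin-deficient ob/ob mice (obese) that were 6 weeks old at injection. In each host, 4 tumors were controls by their labels, which the paper calls pre-chemotherapy and which are called tumors before therapy below. The other 4 had received etoposide (ETS), a topoisomerase poison, as 5 injections of 20 mg per kg, which made 16 tumors in 4 groups. Whether the controls received vehicle, or were taken at the same tumor age and size, is not given in the sources used here. The effect of ETS cannot be told apart from any such difference. Every tumor held host cells beside the melanoma cells, and the obese hosts lacked leptin throughout life, so that obesity and leptin loss cannot be told apart in these groups. The labels number the tumors but do not say whether they came from separate mice, and the p-values below measure only the spread between these tumors.

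ABC exporters use ATP to move compounds out of the cell across the plasma membrane. P-glycoprotein, which mice make from the Abcb1a and Abcb1b genes, and several multidrug resistance proteins (the Abcc genes) are known to export etoposide or its conjugates, and Abcg2 exports a range of anticancer drugs. Their mRNA levels in melanoma cells, vessels and macrophages add up in RNA of a whole tumor. In such bulk samples, fewer cells of a type and less RNA per cell cannot be told apart.

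The members lie on 8 chromosomes of GRCm38.p6, and only Abcb1a (chr5:8567091-8748575) and Abcb1b (chr5:8798147-8866314), both on the plus strand, are neighbours. The others are Abcb5 (chr12:118867486-118966434), Abcc1 (chr16:14361453-14474878), Abcc2 (chr19:43782308-43838332), Abcc3 (chr11:94343295-94393017), Abcc4 (chr14:118482692-118707856), Abcc5 (chr16:20331303-20426428), Abcc10 (chr17:46303220-46328031) and Abcg2 (chr6:58584491-58692451). Of the Abcc genes, Abcc1 and Abcc5 are on the same chromosome. Exact stretches of 50 bases tie the P-glycoprotein genes together: 16.3% of those in the exons of Abcb1a were also found in Abcb1b, and 11.1% of those of Abcb1b in Abcb1a, so the counting could have split reads between them. Exons of Abcb1a, Abcb1b and Abcc10 overlap those of antisense genes (Gm42686, Gm5106 and Dlk2), by 553, 143 and 51 bases, and whether the counting used strand is not given in the sources used here.

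Promoter sequences from RefSeq (GRCm38.p6) were matched to 8 members, with 12 start sites. The 250 bases before the start are shown for 4 of them: the neighbouring P-glycoprotein genes, which share exon sequence, and Abcc2 and Abcc4, which are taken up below for opposite changes in lean tumors. Capitals mark every match, on either strand, to the CCAAT box (CCAAT), the GC box (GGGCGG), the TATA box (TATAAA), the AP-1 site (TGANTCA), the core of the antioxidant response element (TGACNNNGC) and the core of the hypoxia response element (ACGTG). The windows are chr5:8566841-8567090 (plus strand), chr5:8797897-8798146 (plus strand), chr19:43782058-43782307 (plus strand) and chr14:118706220-118706469 (minus strand, the upstream of its 2 start sites), each written 5′ to 3′.
Abcb1a: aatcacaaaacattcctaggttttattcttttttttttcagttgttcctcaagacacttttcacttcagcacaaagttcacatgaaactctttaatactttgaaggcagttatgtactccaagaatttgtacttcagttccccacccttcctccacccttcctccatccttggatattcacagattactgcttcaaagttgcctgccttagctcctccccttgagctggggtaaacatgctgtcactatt
Abcb1b: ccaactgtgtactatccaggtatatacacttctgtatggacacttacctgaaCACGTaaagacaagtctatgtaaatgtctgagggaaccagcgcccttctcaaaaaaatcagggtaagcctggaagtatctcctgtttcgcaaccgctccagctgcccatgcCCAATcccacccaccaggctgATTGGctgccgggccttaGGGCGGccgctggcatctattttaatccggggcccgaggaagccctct
Abcc2: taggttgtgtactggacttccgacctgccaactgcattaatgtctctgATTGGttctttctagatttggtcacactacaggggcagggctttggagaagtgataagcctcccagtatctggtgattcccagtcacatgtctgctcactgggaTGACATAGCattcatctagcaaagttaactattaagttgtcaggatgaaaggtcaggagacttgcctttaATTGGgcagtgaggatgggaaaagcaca
Abcc4: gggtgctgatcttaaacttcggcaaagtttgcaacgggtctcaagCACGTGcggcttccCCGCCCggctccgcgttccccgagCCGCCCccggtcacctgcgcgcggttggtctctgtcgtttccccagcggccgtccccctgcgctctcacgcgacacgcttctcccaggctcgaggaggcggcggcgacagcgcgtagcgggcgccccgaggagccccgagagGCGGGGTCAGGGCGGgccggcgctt

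The Abcb1a window held none of the 6 motifs and had a GC content of 40.4%. In the Abcb1b window (GC content 52.8%), CCAAT boxes started 87 bases (forward) and 66 bases (reverse strand) before the start site, a GC box lay at 48 bases and a hypoxia core at 198 bases. The Abcc2 window (45.6%) held CCAAT boxes on the reverse strand at 202 and 28 bases and an antioxidant core at 98 bases. The Abcc4 window (72%) held 3 GC boxes, a hypoxia core read on both strands at 205 and 204 bases, where the forward and reverse matches overlap, and an antioxidant core on the reverse strand at 25 bases that runs up to the GC box at 16 bases. Such short motifs are common: of 32851 promoters of this length, 33.8% held a CCAAT box, 32.7% a GC box, 16.6% a hypoxia core, 12.4% a TATA box, 10.2% an antioxidant core and 6.75% an AP-1 site.

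Gene counts per tumor summed to between 47199949 and 61655287. Counts are given below as CPM, scaled to library size with edgeR's TMM factors, which suits comparisons of 1 gene between tumors. Levels of different genes are compared only as TPM, which the authors also deposited and which divides by transcript length. A gene is said to have risen or fallen where edgeR's quasi-likelihood test over all 16209 genes gave an adjusted p under 0.05 (Benjamini-Hochberg), and fold changes are on the log2 scale with their standard errors. All 7 melanocyte markers examined were detected in every tumor, with a summed level of 8843 to 21240 TPM, and 2 of the 7 rose after ETS in each host and none fell. Markers of skeletal muscle summed to over 50 TPM in 5 tumors (lean before therapy 2 and 4, lean after ETS 1 and 2, obese after ETS 2; 54.9 to 364 TPM) and to 3.53 to 9.63 TPM in the other 11. Counts of members that changed are therefore also given without these tumors, a choice made after the data had been seen that leaves 2 lean tumors before therapy and 2 after ETS.

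The transporters were far apart in abundance. Abcc1 was the most abundant member as TPM in lean tumors before therapy (36.9 ± 3.24, mean ± SD, n = 4 tumors here and below), in obese tumors before therapy (37.1 ± 5.95) and in obese tumors after ETS (37.7 ± 9.25). Abcg2, at 34.2 ± 4.11 TPM in obese tumors after ETS, lay within the spread of Abcc1 there, and in lean tumors after ETS Abcg2 ranked first at 31.2 ± 2.71 TPM, above Abcc1 at 25.2 ± 4.82 TPM. Abcc5 followed with group means of 13.7 to 24.4 TPM and Abcc4 with 9.12 to 16.6 TPM.

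Abcb1b (6.11 to 14.1 TPM) and Abcc10 (4.74 to 7.82 TPM) were next, and their ranges overlapped in every group but the lean tumors before therapy. Abcc3 (0.286 to 2.28 TPM), Abcb1a (0.316 to 0.934 TPM) and Abcc2 (0.220 to 0.658 TPM) formed the low end, where the order changed with the group. Abcc1, Abcc5 and Abcg2 together made up 68.2% ± 2.21 of the TPM of the 10 members in lean tumors before therapy and 76.1% to 76.6% in the other groups. The summed TPM of the 10 members was 132 ± 14.3 in lean tumors before therapy, 91.7 ± 13.0 in lean tumors after ETS, 100.5 ± 11.1 in obese tumors before therapy and 119 ± 15.5 in obese tumors after ETS. Between groups, TPM did not run level with TMM-scaled counts. With log2(TPM + 1), log2 fold changes after ETS shifted against TMM by a median over all genes of -0.35 (lean) and -0.094 (obese). The part of this shift in these sums, and in the other TPM sums given here, was not tested.

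**Figure D1:**
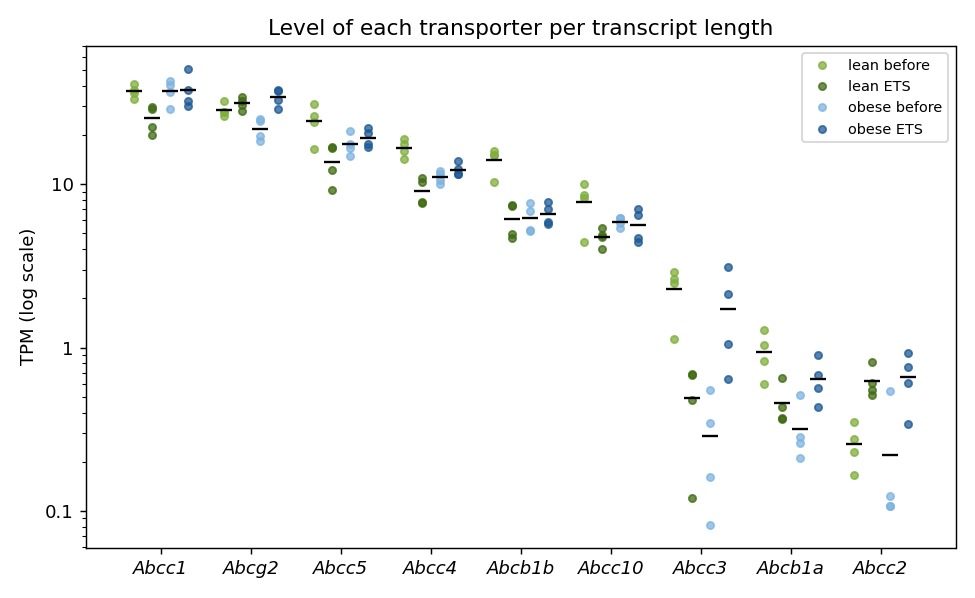
TPM of each transporter (log scale) in single tumors, with the 4 tumors of each group as points in 1 color and their mean as a black line. By mean, Abcc1, Abcg2 and Abcc5 stand highest in every group, and Abcc3, Abcb1a and Abcc2 are the lowest of the detected members.

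In outline, mRNA of 4 exporters was lower after ETS in lean tumors, none was called lower in obese tumors, and Abcc2 and Abcg2 rose in both hosts. In lean tumors 6 of the 9 members tested changed after ETS, 2 upward (Abcc2, Abcg2) and 4 downward (Abcb1b, Abcc3, Abcc4, Abcc5), where 43.8% of all tested genes changed, 21.0% upward and 22.8% downward. In obese tumors 4 of 9 changed, all upward (Abcb1a, Abcc2, Abcc3, Abcg2), against 40.2% of all genes in either direction and 21.2% upward. The median log2 fold change of the 9 members was -0.48 in lean tumors and 0.25 in obese tumors, beside -0.015 and 0.0066 over all genes. The tumors before and after ETS did not overlap for 5 members in lean tumors and 2 in obese tumors, beside 41.2% and 34.2% of all genes. Without the 5 tumors with muscle RNA, 1 member in lean tumors (Abcc4) and 3 in obese tumors (Abcb1a, Abcc3, Abcg2) were called. This fit holds fewer tumors, and the share of all genes called in it was not counted. Its lean values were -0.84 for Abcb1b, 1.65 for Abcc2, -2.52 for Abcc3, -0.50 for Abcc5 and 0.24 for Abcg2. With all tumors these were -0.82, 1.61, -1.80, -0.55 and 0.55.

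**Figure D2:**
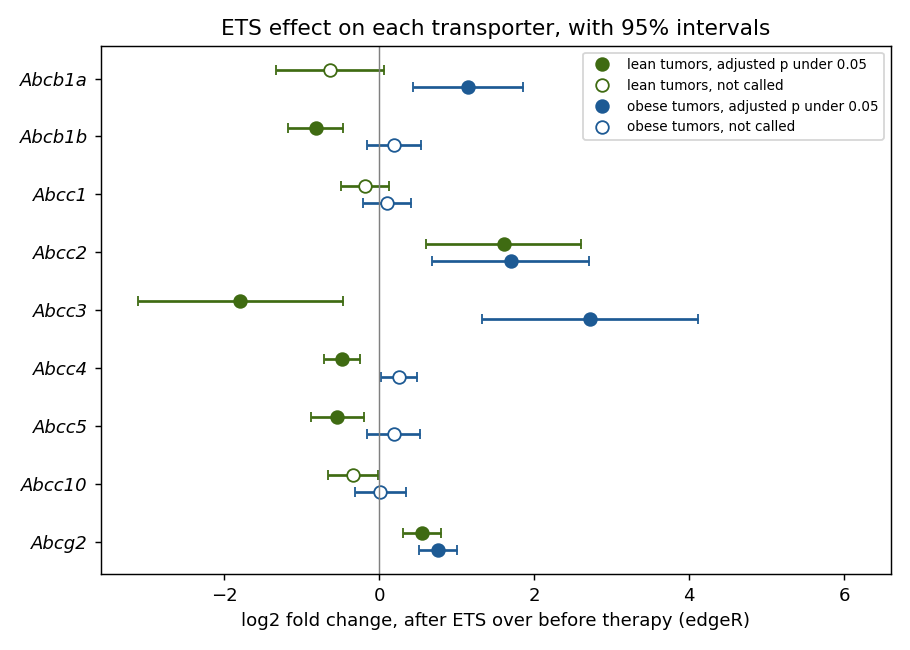
Log2 fold change after ETS over before therapy (horizontal axis) for each of the 9 tested members in lean and obese tumors, with 95% intervals from edgeR and filled points where the adjusted p is under 0.05. Abcc2 and Abcg2 lie to the right of 0 in both hosts, and Abcc3 lies at -1.80 in lean and 2.72 in obese tumors.

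The P-glycoprotein genes come first. Abcb1b, the form known from the adrenal gland and the pregnant uterus, stood at 22.8, 29.3, 29.7 and 29.6 CPM in lean tumors 1 to 4 before therapy and at 19.7, 14.0, 17.5 and 11.8 CPM after ETS. For Abcb1b, obese tumors gave 14.7, 16.3, 11.7 and 11.9 CPM before therapy and 15.2, 17.98, 16.2 and 12.8 CPM after ETS. The lean tumors before therapy thus stood above all others, and the other 3 groups overlapped each other. Abcb1b fell 1.77-fold after ETS in lean tumors (log2 fold change -0.82 ± 0.17, adjusted p = 0.00128, edgeR) and did not pass the test in obese tumors (0.19 ± 0.17, adjusted p = 0.389). Without the muscle-containing tumors, the lean change was -0.84 with an adjusted p of 0.0600.

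Abcb1a, the form typical of blood-brain barrier endothelium, was much scarcer, with 27 to 197 counts per tumor. Abcb1a stood at 1.61, 3.03, 1.87 and 2.43 CPM in lean tumors before therapy and at 2.07, 1.298, 1.24 and 1.14 CPM after ETS, where tumor 1 after ETS overlapped the earlier tumors. For Abcb1a, obese tumors gave 0.558, 1.32, 0.703 and 0.795 CPM before therapy and 2.86, 1.71, 1.08 and 1.80 CPM after ETS, with an overlap between tumor 2 before and tumor 3 after therapy. It rose 2.21-fold in obese tumors (1.14 ± 0.33, adjusted p = 0.0142, edgeR), and without obese tumor 1 after ETS the log2 fold change was 0.88 with an adjusted p of 0.0546. In lean tumors it did not pass the test (-0.64 ± 0.33, adjusted p = 0.124), although limma-voom called it lower (-0.82, adjusted p = 0.0162).

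The summed endothelial markers, 8 genes that were all tested, ranged from 70.1 to 104 TPM in lean tumors before therapy, from 46.6 to 60.3 TPM in lean tumors after ETS, from 37.0 to 68.3 TPM in obese tumors before therapy and from 66.6 to 162 TPM in obese tumors after ETS. Of these 8 markers, 1 was lower in lean hosts and 6 were higher in obese hosts after ETS in the TMM-scaled test, and none was at 0 in any tumor. The sums are TPM, with the median shift against TMM given above (-0.35 in lean tumors). Obese tumor 1 after ETS had the highest endothelial sum and the highest Abcb1a level of its group, at 0.9003 TPM. The order did not match in every group. Among lean tumors before therapy, tumor 2 had the most Abcb1a (1.28 TPM) with an endothelial sum of 102 TPM. Tumor 4 of that group had 1.03 TPM of Abcb1a with the highest sum, 104 TPM. The part of endothelial RNA in the Abcb1a values was not tested.

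Added up, Abcb1a and Abcb1b reached 14.998 ± 2.796 TPM in lean tumors before therapy and 6.57 ± 1.61, 6.54 ± 1.31 and 7.24 ± 0.807 TPM in lean tumors after ETS, obese tumors before therapy and obese tumors after ETS. Abcb1b made up 90.8% to 95.2% of this sum on average. Counted as 1 gene, which removes any split of reads between them, the pair fell in lean tumors after ETS (-0.81 ± 0.16, adjusted p = 0.00133, edgeR) and gave 0.26 ± 0.16 in obese tumors (adjusted p = 0.212). This test used TMM-scaled counts, whereas the sums are TPM, with the median shift given above (-0.35 in lean tumors).

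Abcb5, an exporter known as a marker of melanoma-initiating cells, had 0 counts in all 16 tumors. A count of 0 allows up to 3 counts, or 0.0487 to 0.0636 CPM of the library totals in the single tumors, a limit that covers counting error only. No fold change or test was therefore made.

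Among the multidrug resistance proteins, Abcc1 exports glutathione conjugates and unmodified drugs. Abcc1 stood at 112, 89.9, 97.0 and 110 CPM in lean tumors before therapy and at 105, 79.9, 97.1 and 77.8 CPM after ETS. For Abcc1, obese tumors gave 121, 108, 88.7 and 134 CPM before therapy and 118, 105, 108 and 154 CPM after ETS. The groups overlapped in both hosts, and neither change passed the test (lean -0.18 ± 0.15, adjusted p = 0.320; obese 0.10 ± 0.15, adjusted p = 0.607, edgeR). Their 95% intervals were -0.50 to 0.13 and -0.21 to 0.41.

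Abcc2, an exporter of conjugated compounds best known from the bile canaliculus of the liver, rose in both hosts from a level close to the low end of detection (15 to 142 counts per tumor). Abcc2 stood at 0.996, 0.569, 0.402 and 0.683 CPM in lean tumors before therapy and at 1.84, 1.88, 2.43 and 1.93 CPM after ETS, so that every tumor after ETS was higher. For Abcc2, obese tumors gave 0.310, 1.46, 0.301 and 0.371 CPM before therapy and 2.03, 2.92, 1.98 and 0.946 CPM after ETS. Tumor 2 before therapy stood apart in the obese group and overlapped tumor 4 after ETS.

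The rise of Abcc2 was 3.04-fold in lean tumors (1.61 ± 0.47, adjusted p = 0.0126, edgeR) and 3.24-fold in obese tumors (1.69 ± 0.48, adjusted p = 0.0115). Without obese tumor 2 before therapy, the obese change was 2.58. Without the 5 tumors with muscle RNA the values were 1.65 (adjusted p = 0.192) in lean and 1.48 (adjusted p = 0.0769) in obese tumors.

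Abcc3, a basolateral exporter of glucuronides that carries etoposide, had the largest fitted change of the 9 members in each host, in opposite directions. Abcc3 stood at 7.60, 5.99, 2.47 and 5.62 CPM in lean tumors before therapy and at 2.16, 2.36, 1.36 and 0.368 CPM after ETS, just below the lowest of the earlier tumors. For Abcc3, obese tumors gave 0.434, 1.38, 0.921 and 0.230 CPM before therapy and 9.63, 1.94, 2.58 and 5.38 CPM after ETS, all above the earlier ones. It fell 3.48-fold in lean tumors (-1.80 ± 0.62, adjusted p = 0.0289, edgeR) and rose 6.59-fold in obese tumors (2.72 ± 0.65, adjusted p = 0.00457). The lean call was lost, at adjusted p-values of 0.0515 to 0.0649, without lean tumor 1, 2 or 4 before therapy or lean tumor 3 or 4 after ETS, whereas the obese call kept its side of the threshold without any 1 tumor.

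Macrophage markers moved with Abcc3. The summed level of 8 such markers, all tested and none at 0, ranged from 604 to 1616 TPM in lean tumors before therapy, from 63.9 to 389 TPM after ETS, from 58.2 to 332 TPM in obese tumors before therapy and from 362 to 1252 TPM after ETS. After ETS, 5 of the 8 were lower in lean hosts and 5 higher in obese hosts. The lean tumor with the least Abcc3 after ETS (tumor 4, 0.120 TPM) and the obese tumor with the least before therapy (tumor 4, 0.0822 TPM) also had the lowest macrophage sums of their groups, at 63.9 and 58.2 TPM. The order did not match in all groups. Among obese tumors after ETS, tumor 1 had the most Abcc3 (3.12 TPM) with a macrophage sum of 684 TPM. Tumor 4 of that group had 2.11 TPM of Abcc3 with the highest sum, 1252 TPM. Fibroblast and pericyte markers, 7 genes that were all tested, moved the same way, with sums of 188 to 657, 42.0 to 132, 35.3 to 176 and 175 to 1657 TPM in the same order of groups. The part of host cell RNA in the Abcc3 values was not tested.

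**Figure D3:**
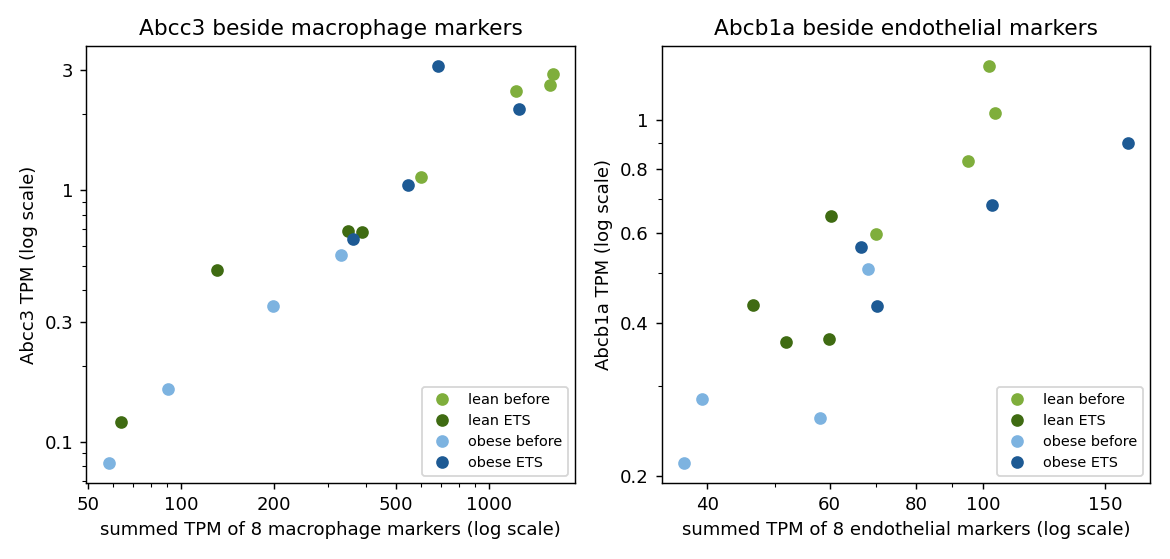
Left, Abcc3 TPM against the summed TPM of 8 macrophage markers, and right, Abcb1a TPM against the summed TPM of 8 endothelial markers, with 1 point per tumor, colors for the groups and log scales throughout. Lean tumors before therapy and obese tumors after ETS have the highest group medians of the marker sums in both panels, although the groups overlap.

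Abcc10, a transporter known to carry taxanes, stood at 11.04, 19.1, 20.7 and 17.8 CPM in lean tumors before therapy and at 14.1, 13.0, 12.9 and 14.2 CPM after ETS. For Abcc10, obese tumors gave 14.9, 14.9, 14.1 and 13.8 CPM before therapy and 14.0, 12.6, 16.1 and 15.6 CPM after ETS. Lean tumor 1 before therapy lay below the tumors after ETS while its 3 companions lay above them. The change did not pass the test in lean tumors (-0.34 ± 0.15, adjusted p = 0.0820, edgeR) but did without that tumor (-0.50, adjusted p = 0.00179), and in obese tumors it was 0.015 ± 0.15 (adjusted p = 0.953). With all tumors, limma-voom called Abcc10 lower in lean tumors (-0.40, adjusted p = 0.00827).

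Abcc4 and Abcc5 are shorter proteins of the same subfamily that export cyclic nucleotides and nucleotide analogues. Abcc4 stood at 42.2, 41.4, 43.6 and 48.7 CPM in lean tumors before therapy and at 38.0, 30.2, 32.3 and 25.4 CPM after ETS, with no overlap. For Abcc4, obese tumors gave 33.1, 33.9, 29.5 and 32.3 CPM before therapy and 40.4, 41.4, 38.0 and 33.3 CPM after ETS, with tumor 4 after ETS inside the earlier range. It fell 1.40-fold in lean tumors (-0.48 ± 0.11, adjusted p = 0.00285, edgeR), a call that held without any 1 tumor and without the tumors with muscle RNA. In obese tumors the value was 0.25 ± 0.11 (adjusted p = 0.0822), and it passed the threshold without obese tumor 4 after ETS (0.32, adjusted p = 0.0347) or without lean tumor 1 after ETS (0.26, adjusted p = 0.0458).

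Abcc5 was measured at 48.6, 69.5, 91.8 and 76.4 CPM in lean tumors before therapy and at 58.4, 38.3, 52.1 and 47.4 CPM after ETS, where tumor 1 before therapy lay among those after ETS. For Abcc5, obese tumors gave 55.7, 60.6, 49.6 and 60.7 CPM before therapy and 57.9, 63.7, 70.7 and 65.2 CPM after ETS, with overlap. It fell 1.46-fold in lean tumors (-0.55 ± 0.16, adjusted p = 0.0130, edgeR), a call lost without lean tumor 3 before therapy (-0.40, adjusted p = 0.0539). The obese value was 0.18 ± 0.16 (adjusted p = 0.379).

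Abcg2, which works as a dimer and marks the side population of stem-like cells, rose in both hosts. Abcg2 stood at 34.9, 28.2, 33.5 and 30.0 CPM in lean tumors before therapy and at 51.4, 53.4, 40.6 and 39.97 CPM after ETS. For Abcg2, obese tumors gave 29.6, 30.1, 24.1 and 23.4 CPM before therapy and 43.8, 47.03, 44.4 and 46.3 CPM after ETS. Every tumor after ETS was above every tumor before therapy in both hosts. The rise was 1.46-fold in lean tumors (0.55 ± 0.11, adjusted p = 0.00158, edgeR) and 1.69-fold in obese tumors (0.76 ± 0.12, adjusted p = 0.000200).

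The obese rise of Abcg2 was called under every alternative run. The lean rise depended on the scale: with log2(TPM + 1), under which the median of all genes shifted by -0.35 in lean tumors, it was 0.13 (adjusted p = 0.344, limma), and without the tumors with muscle RNA it was 0.24 (adjusted p = 0.293). On that TPM scale, 15.7% of the genes called in lean tumors were higher after ETS, against 48.0% with TMM, and 8 members were called, 7 lower (Abcb1a, Abcb1b, Abcc1, Abcc3, Abcc4, Abcc5 and Abcc10) and 1 higher (Abcc2). In obese tumors, where the median shifted by -0.094, 43.6% of the called genes were higher on the TPM scale and 52.8% with TMM.

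**Figure D4:**
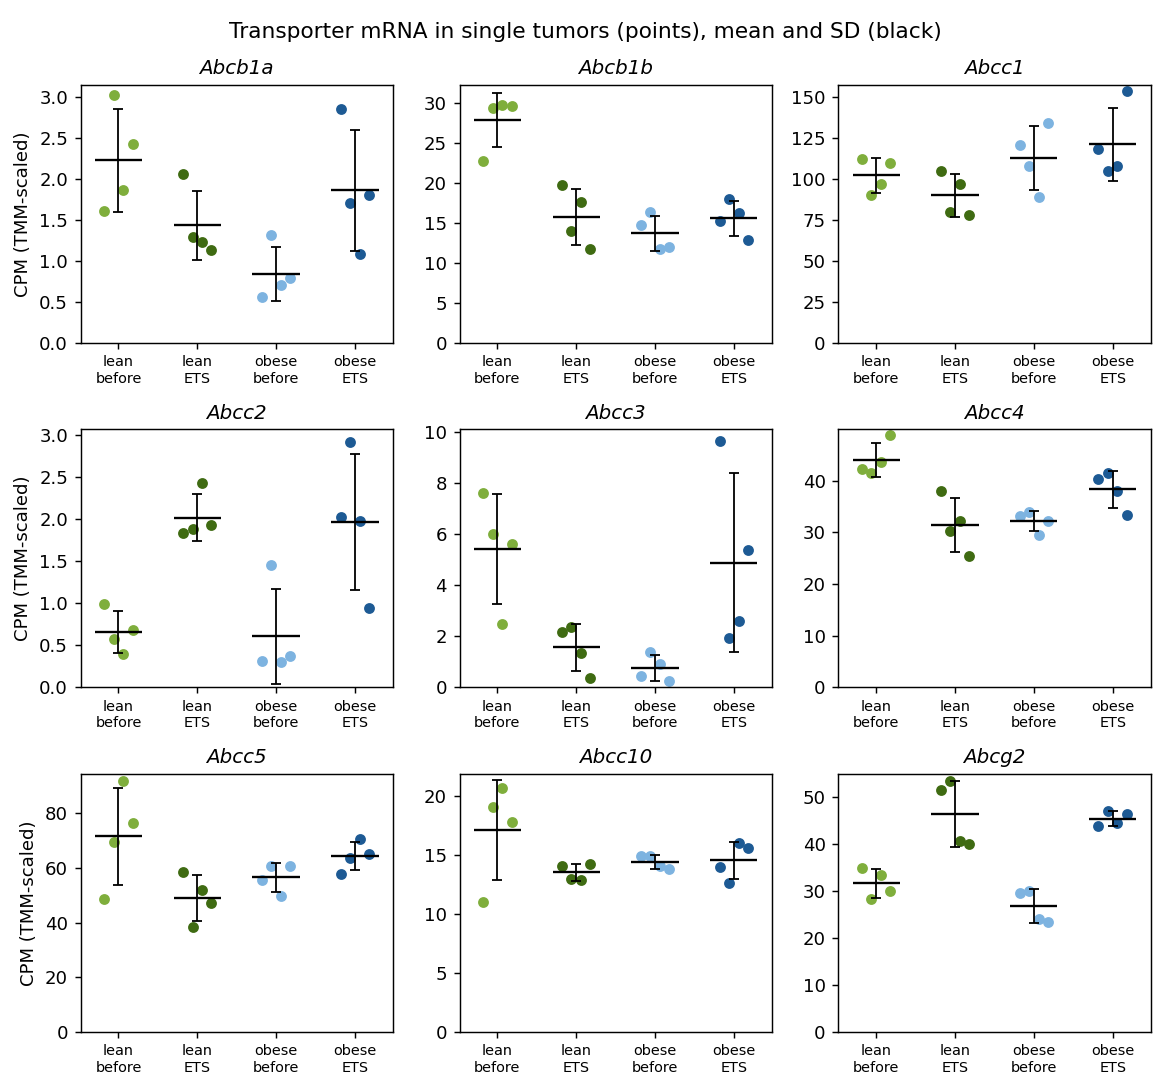
TMM-scaled CPM of the 9 detected transporters, with 1 panel per gene, 1 point per tumor, and the group mean and SD in black. Abcg2 lies higher after ETS in every tumor of both hosts, Abcb1b lies highest in the lean tumors before therapy, and Abcc3 goes down in the lean host and up in the obese one.

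The ETS effect itself was compared between hosts as an interaction (lean minus obese). All 9 members tested had a value below 0, and the share of all genes below 0 was not counted. The median was -0.73 for the members and 0.052 over all genes. Of the members, 5 passed the test, all with the more negative effect in lean tumors, where 16.4% of all genes passed and 10.1% in that direction. Without the tumors with muscle RNA, 2 remained called (Abcc3 and Abcc4), and with fewer tumors in the fit the difference was -1.77 for Abcb1a (adjusted p = 0.136), -0.98 for Abcb1b (adjusted p = 0.106) and -0.72 for Abcc5 (adjusted p = 0.253). The difference was -4.52 ± 0.90 for Abcc3 (adjusted p = 0.00311, edgeR), -1.78 ± 0.47 for Abcb1a (adjusted p = 0.0165) and -1.01 ± 0.23 for Abcb1b (adjusted p = 0.00840). It was -0.73 ± 0.16 for Abcc4 (adjusted p = 0.00467) and -0.73 ± 0.23 for Abcc5 (adjusted p = 0.0389).

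The Abcc5 difference is the least certain of these, since it lost its call in 12 of the 16 fits that left out 1 tumor, at adjusted p-values of 0.0522 to 0.0815, and with the replicate number as a block (adjusted p = 0.0510). For Abcg2 the difference was -0.21 ± 0.16 (adjusted p = 0.413, 95% interval -0.55 to 0.14), and for Abcc2 -0.088 ± 0.66 (adjusted p = 0.943), with a wide interval of -1.48 to 1.31. Abcc1 (-0.29 ± 0.21, adjusted p = 0.376) and Abcc10 (-0.36 ± 0.22, adjusted p = 0.289) did not pass either, although Abcc10 did without lean tumor 1 before therapy (-0.52, adjusted p = 0.0222). Counted as 1 gene, Abcb1a and Abcb1b gave -1.07 ± 0.23 (adjusted p = 0.00527). Of the 8 macrophage, 8 endothelial and 7 fibroblast and pericyte markers, 7, 6 and 7 had a more negative effect in lean tumors.

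Before therapy, obese tumors already held less mRNA of 4 of the 9 members, where 26.4% of all genes differed and 12.9% were lower. Abcc3 was 7.32-fold lower (-2.87 ± 0.66, adjusted p = 0.00471, edgeR), Abcb1a 2.65-fold (-1.41 ± 0.33, adjusted p = 0.00612), Abcb1b 2.04-fold (-1.03 ± 0.17, adjusted p = 0.000406) and Abcc4 1.37-fold (-0.45 ± 0.11, adjusted p = 0.00708). For these genes every obese tumor lay below every lean tumor, as for 14.4% of all genes. Without the tumors with muscle RNA, 3 of these calls remained, and Abcb1a gave -1.09 (adjusted p = 0.115).

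Abcc5 (-0.34 ± 0.16, adjusted p = 0.136), Abcc10 (-0.25 ± 0.15, adjusted p = 0.250), Abcg2 (-0.24 ± 0.11, adjusted p = 0.139), Abcc2 (-0.13 ± 0.48, adjusted p = 0.874) and Abcc1 (0.14 ± 0.15, adjusted p = 0.512) did not pass the test. Without lean tumor 1 before therapy, Abcc5 (-0.48, adjusted p = 0.0161) and Abcc10 (-0.41, adjusted p = 0.0105) did. Among the markers, 6 of 8 macrophage, 3 of 8 endothelial, 3 of 7 melanocyte and 2 of 7 fibroblast and pericyte genes were lower in obese tumors at this stage. Summed melanocyte markers ranged from 17276 to 21240 TPM in lean and from 8843 to 12900 TPM in obese tumors before therapy, without overlap, and their part in the lower values was not tested. Summed T and NK cell markers ranged from 35.6 to 68.6 TPM in lean tumors before therapy and did not exceed 3.29 TPM in any other group, with Cd3e and Ncr1 at 0 in every obese tumor before therapy.

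After ETS, edgeR called none of the 9 members as different between obese and lean tumors, where 5.58% of all genes were called. At an unadjusted p under 0.05 there were 4 (25.0% of all genes), all higher in obese tumors: Abcc1 (0.43 ± 0.15, adjusted p = 0.0876), Abcc3 (1.65 ± 0.62, adjusted p = 0.116), Abcc4 (0.28 ± 0.11, adjusted p = 0.126) and Abcc5 (0.39 ± 0.16, adjusted p = 0.144). Among the members, only for Abcc1 did the groups not overlap (13.2% of all genes), with the lowest obese and the highest lean tumor both at 105 CPM after rounding. DESeq2 called Abcc3 (1.64, adjusted p = 0.0357), and every other tool run called none. The P-glycoprotein genes, apart before therapy, gave 0.38 ± 0.33 for Abcb1a (adjusted p = 0.500) and -0.018 ± 0.17 for Abcb1b (adjusted p = 0.963, 95% interval -0.37 to 0.33), and Abcg2 gave -0.030 ± 0.11 (adjusted p = 0.9001, interval -0.27 to 0.21). After ETS, summed adipocyte markers ranged from 19.5 to 38.9 TPM in lean and from 191 to 567 TPM in obese tumors, without overlap. Before therapy the ranges were 34.5 to 78.9 TPM and 38.8 to 237 TPM. Of 5 such markers 1 was tested, and it was higher in obese tumors after ETS, as were 3 of 7 fibroblast and pericyte markers. No macrophage, endothelial or melanocyte marker was called. The part of adipocyte RNA in the member values was not tested. The comparisons share tumor groups and are not independent of each other.

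For the 4 members with the smallest adjusted p in the interaction, the tested genes with the most similar course over the 16 tumors were listed. Likeness was the root mean square difference of centred log2 CPM, and the spread of the member itself is given for scale. Abcc3 (spread 1.499) was nearest to Tlr13 (0.298) and C3ar1 (0.407). Abcb1a (0.659) was nearest to Pecam1 (0.256) and Kdr (0.267), both on the endothelial marker list, and to Grn (0.311). Abcb1b (0.452) was nearest to Zbtb5 (0.186), Grik2 (0.189) and D17H6S56E-5 (0.195), and Abcc4 (0.240) to Casp9 (0.113), Polr1a (0.126) and Daglb (0.127).

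Of 42 other ABC genes, 28 were tested. In lean tumors 1 of them rose after ETS, Abca8a (0.82 ± 0.24, adjusted p = 0.0128, edgeR), and 5 fell, with Tap2 (-3.37 ± 0.39) and Tap1 (-3.16 ± 0.45), which carry peptides for antigen presentation, falling most. In obese tumors 11 rose, led by Tap1 (2.40 ± 0.45) and by Abca1 (2.35 ± 0.38), the cholesterol exporter of macrophages and other cells, and 2 fell, among them Abce1 (-0.57 ± 0.11), a ribosome recycling factor. Before therapy 7 were lower and none was higher in obese tumors, with Tap1 (-6.25 ± 0.52) and Tap2 (-5.55 ± 0.44) furthest apart. The interaction passed for 7, all more negative in lean tumors. Of the tested genes of this list, 21.4% were called in lean tumors, 46.4% in obese tumors, 25% before therapy and 25% in the interaction. Over all genes these shares were 43.8%, 40.2%, 26.4% and 16.4%. The lean count moved from 6 to 10 without obese tumor 4 after ETS, to 14 with log2(TPM + 1) and to 3 without the tumors with muscle RNA.

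**Figure D5:**
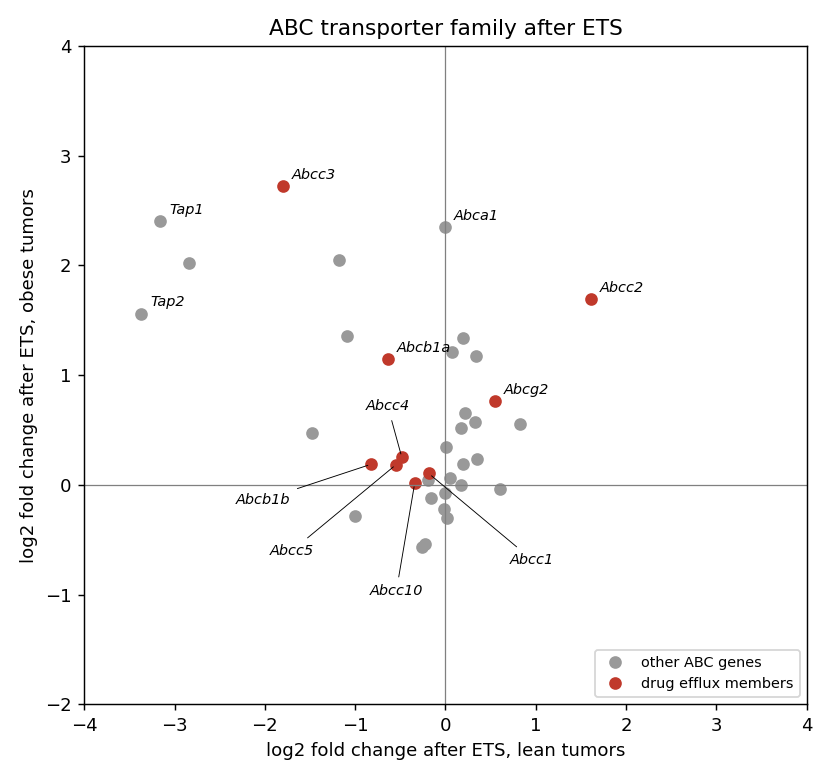
Log2 fold change after ETS in lean tumors (horizontal) and obese tumors (vertical) for the 9 tested drug efflux members (red) and the 28 other tested ABC genes (grey). All 9 members lie above 0 for obese tumors and 7 lie below 0 for lean tumors, with Abcc3 furthest out. Tap1, Tap2 and further ABC genes share that quadrant of lower values in lean and higher values in obese tumors. Abcc2 and Abcg2 are higher in both.

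Of 30 drug carriers outside the ABC family (solute carriers, copper pumps, the major vault protein and others), 17 were tested. In lean tumors 2 rose, Slc22a18 (1.45 ± 0.43) and the carnitine carrier Slc22a5 (0.26 ± 0.092), and 4 fell, the prostaglandin carrier Slco2a1 (-1.77 ± 0.57) and the peptide carrier Slc15a2 (-1.07 ± 0.34) most. These 6 became 3 without lean tumor 2 before therapy or lean tumor 2 or 3 after ETS, and 0 without the tumors with muscle RNA, and without lean tumor 4 before therapy 4 rose and 2 fell. In obese tumors 9 rose and none fell, with Slco2a1 (3.06 ± 0.61, adjusted p = 0.00140, edgeR) and Slc22a18 (2.41 ± 0.46, adjusted p = 0.000991) rising most. Before therapy 4 were higher in obese tumors, led by the copper pump Atp7b (1.56 ± 0.28) and the nucleoside carrier Slc29a2 (1.09 ± 0.24), and 5 were lower, led by Slco2a1 (-3.35 ± 0.62) and Slc22a18 (-1.71 ± 0.45). The interaction passed for 6, all more negative in lean tumors. Of the tested carriers, 35.3% were called in lean tumors, 52.9% in obese tumors, 52.9% before therapy and 35.3% in the interaction. Over all genes these shares were 43.8%, 40.2%, 26.4% and 16.4%.

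Among factors known to act on transporter transcription or membrane anchoring, 31 of 34 genes were tested. In lean tumors 2 rose, Nr1i2, the xenobiotic receptor PXR (1.28 ± 0.37, adjusted p = 0.0113, edgeR), and Foxo3 (0.59 ± 0.17), and 12 fell, the kinase Pim1 (-2.67 ± 0.47) and the lipid-sensing receptor Pparg (-2.20 ± 0.43) most. Without the tumors with muscle RNA, 6 of the list were called in lean tumors, 1 higher and 5 lower. The number that rose in lean tumors moved with other settings too, to 6 (with 12 lower) without lean tumor 1 before therapy, to 8 (with 14 lower) with limma-voom and to 0 (with 18 lower) with log2(TPM + 1). In obese tumors 4 rose, Pparg (1.27 ± 0.42) and the hypoxia factor Epas1 (0.83 ± 0.20) most, and 6 fell, with radixin (Rdx, -0.80 ± 0.13), which anchors Abcc2 at the membrane, and Atf2 (-0.48 ± 0.11) falling most. Before therapy 3 were higher in obese tumors, led by Foxo3 (0.87 ± 0.18) and Ybx1 (0.46 ± 0.099), and 6 were lower, led by the estrogen receptor Esr1 (-2.63 ± 0.26) and Pparg (-1.80 ± 0.42). The interaction passed for 8, of which 6 were more negative in lean tumors. Of the tested factors, 45.2% were called in lean tumors, 32.3% in obese tumors, 29.0% before therapy and 25.8% in the interaction. Over all genes these shares were 43.8%, 40.2%, 26.4% and 16.4%.

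Glutathione supplies the conjugates that Abcc1 and Abcc2 export, and 18 of 19 genes of its synthesis and breakdown were tested. In lean tumors 5 rose, Ggt1 (1.84 ± 0.29), which splits glutathione outside the cell, and Mgst3 (1.08 ± 0.15) most, and 8 fell, led by the cystine carrier Slc7a11 (-2.17 ± 0.39) and the glutathione-degrading Chac1 (-1.78 ± 0.42). Without the tumors with muscle RNA, which leaves fewer tumors, 4 of this list were called in lean tumors, 1 higher and 3 lower. In obese tumors 11 rose, the dipeptidases Dpep2 (2.65 ± 0.59) and Dpep1 (2.64 ± 0.97) most, and 4 fell, with Slc7a11 (-1.56 ± 0.38) and Chac1 (-1.26 ± 0.41) falling here too. These 15 became 9 without obese tumor 4 before therapy or obese tumor 1 after ETS, and only 1 of the list fell in obese tumors when any 1 of obese tumors 3 and 4 before therapy or 1 and 2 after ETS was left out, or without the tumors with muscle RNA. Before therapy 1 was higher in obese tumors, Mgst3 (0.54 ± 0.15), and 4 were lower, Dpep2 (-2.30 ± 0.58) and Mgst1 (-1.81 ± 0.20) most. The interaction passed for 6, of which 5 were more negative in lean tumors, and for 3 without lean tumor 2 before therapy, lean tumor 4 after ETS, or obese tumor 3 or 4 before therapy. Of the tested glutathione genes, 72.2% were called in lean tumors, 83.3% in obese tumors, 27.8% before therapy and 33.3% in the interaction. Over all genes these shares were 43.8%, 40.2%, 26.4% and 16.4%. The median log2 fold change of this list after ETS was -0.58 in lean and 0.51 in obese tumors, beside -0.015 and 0.0066 over all genes. The medians were -0.00068 and 0.41 for the other ABC genes, -0.0074 and 0.48 for the drug carriers and -0.14 and -0.0023 for the factors acting on transporters.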

How the data were processed

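RNA of 16 B16F10 tumors, 4 per group, was analysed. The members and gene lists were chosen with earlier results of these data known. The authors trimmed the reads with Trimmomatic, aligned them with HISAT2 2.1.0 to the mm10 genome and quantified them with StringTie 2.1.3b, with bcl2fastq 2.20.0 also named in the submitters' processing notes. As deposited, the counts are raw whole numbers. TPM, deposited by the authors from the same step, served for levels between genes and as an alternative. The FPKM values the authors deposited (16 columns) were not used. Counting by strand is not given in the sources used here.

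Following the paper's methods, a gene was kept where every tumor had a count above 0 (16209 of 45777 genes). Counts were scaled by TMM and tested with edgeR 4.0.16 (quasi-likelihood, R 4.3.3) with a mean per group over all 16 tumors, so that the groups share an estimate of the spread, and p-values were adjusted over all tested genes (Benjamini-Hochberg). The ETS effect in each host, their difference, and obese against lean tumors at each stage were tested. Total counts of 47199949 to 61655287 per tumor leave a floor of 3 counts, and intervals from it cover counting error only. Log2 CPM of tumors of a group correlated at 0.970 to 0.992, and no pair differed by as little as sampling noise.

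Named genes were all 10 members, and from each of 4 lists the 2 largest rises and 2 largest falls among called genes after ETS in each host and before therapy between hosts. The 3 genes nearest to each of the 4 members with the smallest adjusted interaction p were also named, except that 2 genes chosen by this rule are not reported here. Cell type markers were given as lists. Alternatives were DESeq2's size factors, no exclusion, filterByExpr, the exact test on counts plus 1, DESeq2 1.42.0, limma-voom with sample weights, limma 3.58.1 on log2(TPM + 1), with a pseudocount of 0.1 or without exclusion, only the 2 groups compared, the replicate number as a block, and each tumor left out. Leaving out tumors with over 50 TPM of muscle markers was added after the data had been seen. The scripts were tested on simulated data. Genes, promoters and coordinates were matched to RefSeq (GRCm38.p6), and exon overlaps and shared stretches of 50 bases were taken from GENCODE annotation and transcripts.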

Additional observations from a re-analysis of the deposited data

Results flagged for a closer look

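Within groups of 4 tumors, 3 of the 36 member and group combinations examined held a tumor far from the other 3, and chance alone gives about 1 in 20. Abcb1b in lean tumor 1 before therapy was at 22.8 CPM, below the other 3 at 29.3 to 29.7 CPM. Abcc2 in lean tumor 3 after ETS was at 2.43 CPM, above the other 3 at 1.84 to 1.93 CPM. Abcc2 in obese tumor 2 before therapy was at 1.46 CPM, above the other 3 at 0.301 to 0.371 CPM.

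For 5 members the effect of ETS was not the same in both hosts by the interaction test (lean minus obese, adjusted p under 0.05, edgeR). The differences were -1.78 for Abcb1a, -1.01 for Abcb1b, -4.52 for Abcc3, -0.73 for Abcc4 and -0.73 for Abcc5 on the log2 scale.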

How the results depend on the processing

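Of 19 member results called in the 5 comparisons, 8 kept their direction and their side of the threshold under every alternative run, and none of the 19 changed direction. Without the tumors with muscle RNA, 1 member was called in lean tumors and 2 in the interaction, a setting that also leaves fewer tumors, and DESeq2 called 1 member between hosts after ETS. With limma-voom, 8 members were called in lean tumors, 2 higher and 6 lower, Abcb1a and Abcc10 among the lower. With 1 tumor left out, 5 to 6 members were called in lean tumors, 3 to 5 in obese tumors, 4 to 6 in the interaction, 4 to 6 before therapy and 0 to 0 after ETS between hosts.

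Correlations of same-numbered deviations ran from -0.046 to 0.45. Differently numbered tumors were not compared in this way, so these values cannot tell whether the numbers pair the tumors. With the replicate number as a block, 6 members were called in lean tumors, 4 in obese tumors, 4 in the interaction (Abcc5 was lost), 4 before therapy and 0 after ETS.

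Values that changed sign were all uncalled in the test as reported, and the cause was not tested. Abcc10 in obese tumors gave -0.00048 without exclusion, -0.0041 with filterByExpr, -0.043 with limma-voom, -0.075 with log2(TPM + 1), with or without exclusion, and -0.090 with log2(TPM + 0.1). Abcc1 before therapy gave -0.0012 and -0.0015 with these TPM pseudocounts. Between hosts after ETS, limma-voom, log2(TPM + 1) and log2(TPM + 0.1) gave 0.053, 0.11 and 0.13 for Abcb1b, 0.032, 0.024 and 0.025 for Abcc2, and 0.067, 0.12 and 0.13 for Abcg2. Without the tumors with muscle RNA, Abcg2 gave 0.14 there and the interaction of Abcc2 0.17.

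With 1 tumor left out, Abcc1 in obese tumors ranged from -0.027 to 0.19, Abcc10 in obese tumors from -0.035 to 0.077, and the Abcc2 interaction from -0.97 to 0.17. Abcc2 before therapy ranged from -1.01 to 0.14, and after ETS between hosts Abcb1b from -0.14 to 0.11, Abcc2 from -0.29 to 0.20 and Abcg2 from -0.096 to 0.038. On the TPM scale, 9.24% of the genes called in the interaction were positive against 38.7% with TMM, 29.0% against 51.0% before therapy and 83.8% against 58.7% after ETS, with median shifts of -0.26, -0.13 and 0.13. Counts of 15 to 142 for Abcc2 and 13 to 531 for Abcc3 per tumor limit the precision of both genes.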
